A study of Mus musculus with 21 samples.

Results

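Laminin chains outside the hemidesmosomal laminin, though not all of them, were followed with the nidogens and agrin across 21 mouse mammary tumors. The 10 genes were taken by symbol, not by their values: *Lama1*, *Lama2*, *Lama4*, *Lama5*, *Lamb1*, *Lamb2*, *Lamc1*, *Nid1*, *Nid2* and *Agrn*, of 49652 genes listed in the deposited count files. All 10 passed the filter on low counts, which left 19315 genes tested in all. None of the 10 was called between the RhoC and control cohorts, where 0.223% of all tested genes were (43 of 19315). In the fit over tumors *Lamb1* had the smallest p of them and was higher in the RhoC tumors at an unadjusted p only. That is a count of 1 in 10 where 10.5% of all tested genes were higher at that threshold. Where mice rather than tumors were counted its p was above 0.05, and *Lama1* had the smallest p instead. For *Lama1* the unadjusted p was 0.0638 with counts summed per mouse (edgeR) and 0.0447 by limma voom with mouse as a random effect. Neither passed after adjustment (0.419 and 0.374). Across mice, by both Pearson's r and Spearman's rho, the nidogens and *Lamc1* went with both endothelial and mural cell markers. By both measures *Lama4* went with endothelial, *Lamb1* with mural and *Lama2* and *Nid1* with fibroblast markers. By r alone further relations passed, such as *Lama4* with mural and *Lama2* with endothelial markers.

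Basement membranes are thin sheets of matrix under epithelia and around vessels, muscle, fat and nerve. Laminins are trimers of an alpha, a beta and a gamma chain, which assemble in the cell before secretion, so a trimer needs a chain of each kind. Secreted laminin binds integrins and dystroglycan at the cell surface and polymerizes there, nidogens link it to the type IV collagen network, and agrin and perlecan are heparan sulfate proteoglycans bound to it. In the mammary gland the basement membrane separates the epithelium from the stroma, and vessels within a tumor carry basement membranes of their own.

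All mice were virgin females that carried FloxNeoNeuNT, an activated Neu cDNA expressed from the endogenous *Erbb2* promoter after Cre removes a stop cassette, and MMTV-CreNLST. By the study's account this mammary Cre line seems to be weaker, or active in a smaller part of the epithelium, than related lines. The control cohort held 9 tumors, 1 per mouse: 7 were Gata4(loxP/+);FloxNeoNeuNT;MMTV-CreNLST (N-1, N-3, N-4, N-6, N-7, N-8 and N-9) and 2 were FloxNeoNeuNT;MMTV-CreNLST (N-15 and N-17). The 12 RhoC tumors were R26(RhoC/+);FloxNeoNeuNT;MMTV-CreNLST and carried in addition a Cre-dependent RhoC-IRES-eGFP cassette at Rosa26. Their 8 mice include P497, which gave 4 tumors (R-13 to R-16), and N9255, which gave 2 (R-6 and R-7), and R-18, whose label names no mouse, was counted as a mouse of its own. The labels give no age for the sampled mice, and the study describes tumors forming at younger ages in RhoC mice than in controls, so age and cohort cannot be told apart here. Tumors of 1 mouse are not independent, so tests over tumors measure a spread that is partly within mice.

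Between 47309780 and 100741339 reads were counted per tumor, and the 10 genes had from 77 reads (*Lama1* in its lowest tumor) to 46802 reads (*Agrn* in its highest), so counting error is small beside the spread between tumors. *Rhoc* itself was at 88.8 ± 33.5 CPM (reads scaled to library size by TMM; mean ± SD, 12 tumors) in the RhoC cohort and 77.7 ± 53.7 in the 9 controls. Its fitted log2 fold change was 0.19 with edgeR (adjusted p = 0.774), and the cohorts are therefore named by their labels alone. *Erbb2* did not pass the test either, at -0.73 on the log2 scale (adjusted p = 0.370). Luminal epithelial markers (7 genes from *Krt8* to *Cldn7*) summed to between 1232 and 5935 CPM in each tumor. Control N-17 stood apart: the 2 skeletal muscle markers tested of 7 summed to 1681 CPM there against a control median of 0.833, and the 2 adipocyte markers tested of 6 to 418 against 5.13. Among RhoC tumors R-10 had the highest muscle sum, at 409 CPM against a cohort median of 0.789. In bulk tissue, fewer cells of a type and less RNA per cell cannot be told apart.

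The comparison of RhoC with control tumors asks which genes differ between the cohorts, which differ in the added RhoC allele. A Gata4 loxP allele was carried by 7 of the 9 controls and by no RhoC tumor, so its part and that of RhoC cannot be fully told apart. In edgeR's quasi-likelihood test, 0 of the 10 genes were called at an adjusted p under 0.05, where 0.223% of all tested genes were called (43 of 19315, 18 higher and 25 lower). That count over all genes rested on single tumors, from 14 without N-9 to 346 without N-15, with 108 without R-12 and 94 without R-10. DESeq2 called 0 of the 10 as well, where it called 5.94% of the genes it tested (1452 of 24434). At an unadjusted p under 0.05, 1 of the 10 was higher in RhoC tumors, where 10.5% of all tested genes were higher, and 0 were lower, where 9.93% were. The fitted change was upward for 7 of the 10 and downward for 3, with a median log2 fold change of 0.21 beside -0.005 over all tested genes. The 95% intervals of the log2 fold changes include 0 for every gene but *Lamb1*, and they reach changes of over 1 on the log2 scale for *Lama1*, *Lamb1* and *Agrn*.

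**Figure D1:**
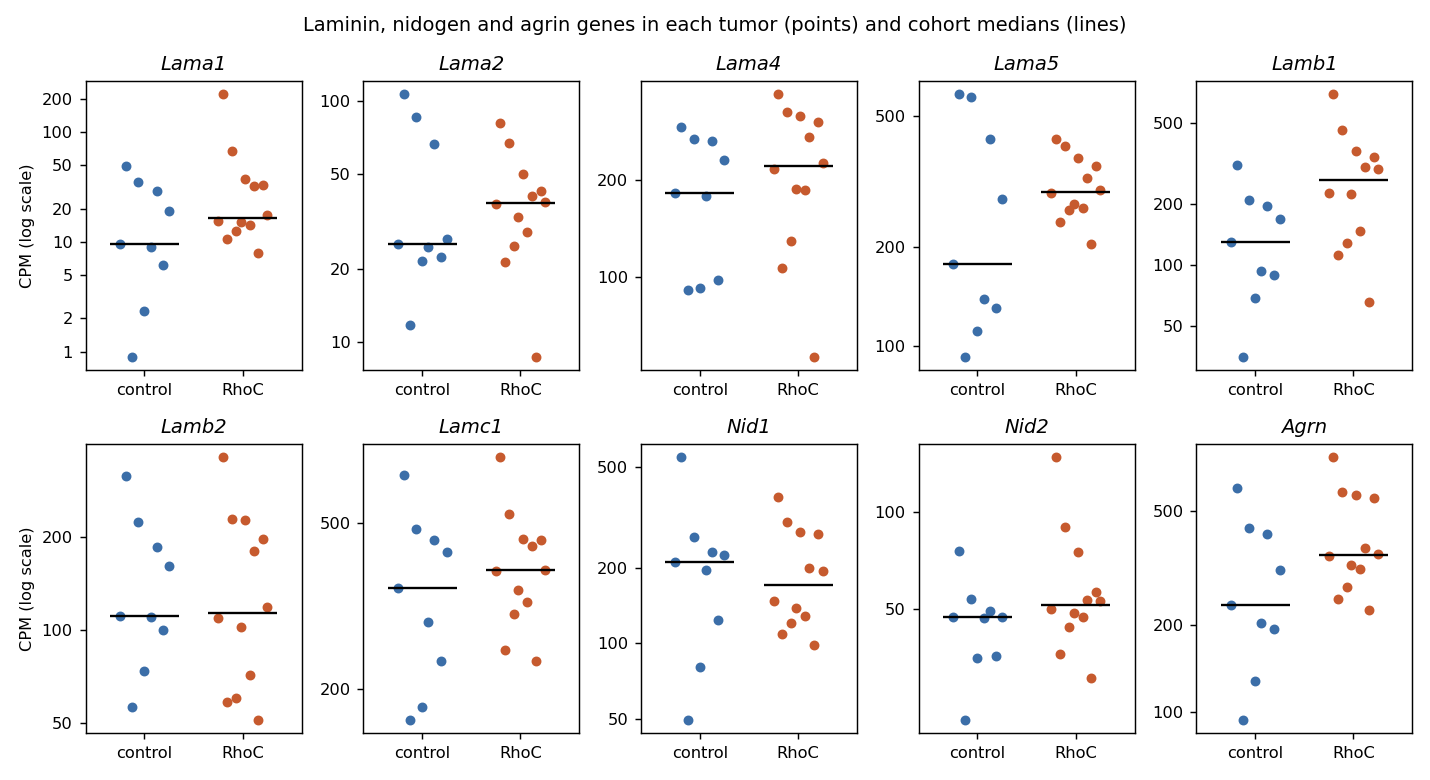
CPM (TMM-scaled, log axis) of each of the 10 genes in 9 control and 12 RhoC tumors; each point is a tumor and the lines are cohort medians. The cohorts overlap for every gene, the highest *Lama1* value (219.7 CPM) is a single RhoC tumor, and the *Lama5* controls run from 92.8 to 584 CPM around the narrower RhoC range.

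**Figure D2:**
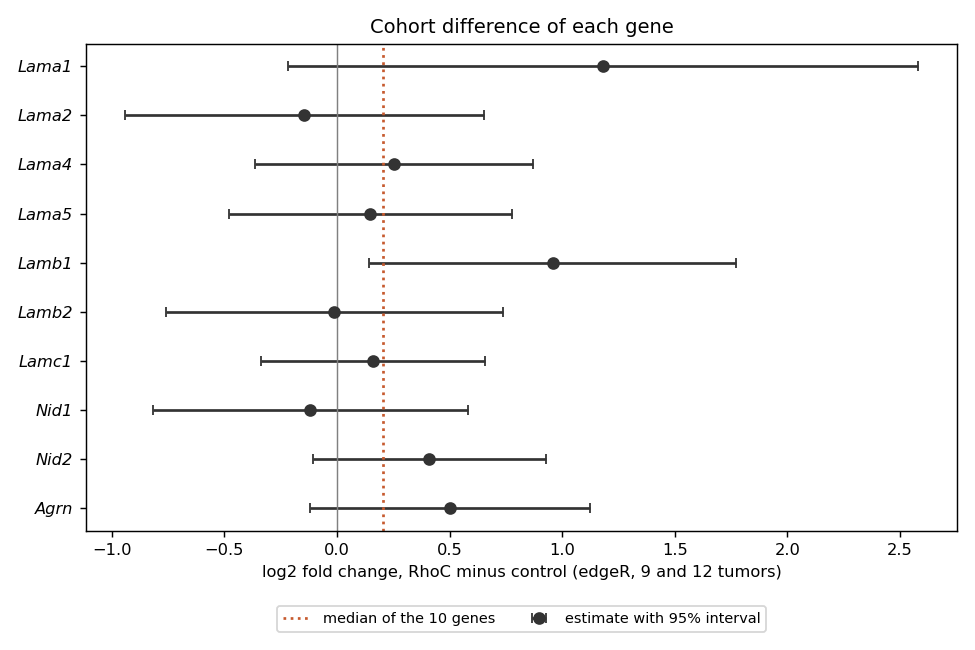
Log2 fold change of each gene, RhoC minus control (edgeR, 12 and 9 tumors), with 95% intervals; the dotted line is the median of the 10 estimates, 0.21. The *Lamb1* interval runs from 0.14 to 1.77 and the other 9 include 0.

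Of the 4 alpha chains followed, *Lama1* (chr17:67697259-67822647 on GRCm38, as all gene positions here) varied most. It encodes a chain best known from embryonic basement membranes, which the adult mammary epithelium also uses. Control tumors ran from 0.891 CPM in N-8 through a median of 9.46 to 48.6 in N-7, and RhoC tumors from 7.85 in R-14 through 16.4 to 219.7 in R-10. The cohorts overlapped, with 11 of 12 RhoC tumors above the control median and 4 of 9 controls above the RhoC median. Its fitted log2 difference, RhoC minus control as throughout, was 1.18 with an SE of 0.67 (adjusted p = 0.324), and the 2-sided exact permutation test over all 293930 labelings of the tumors gave p = 0.0924. The size of the change rested on R-10, without which it was 0.42 (adjusted p = 0.667). It was larger where mice were counted, at 1.44 with counts summed per mouse (edgeR, unadjusted p = 0.0638, adjusted p = 0.419). By limma voom with mouse as a random effect it was 1.45 (unadjusted p = 0.0447, adjusted p = 0.374). Without the 4 tumors of mouse P497 it was 1.62 (edgeR, unadjusted p = 0.0346, adjusted p = 0.397).

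*Lama2* (chr10:26981285-27616866) encodes the alpha chain of muscle, nerve and stromal basement membranes. It ran from 11.8 through 25.5 to 107 CPM in controls, highest in N-17, and from 8.63 through 37.8 to 81.1 in RhoC tumors, highest in R-10. These are also the tumors with the highest muscle marker sums of their cohorts, whose part in the result was not tested. On the log2 scale the fit gave -0.14, SE 0.38 (adjusted p = 0.855), while the difference in mean log2 CPM was 0.03 in the other direction, and without N-17 the fit gave 0.15.

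*Lama4* (chr10:38965515-39110188), the chain of vessel, fat and other mesenchymal basement membranes, was at 188 ± 80.3 CPM in controls and 224 ± 96.1 in RhoC tumors. Controls N-1, N-7 and N-9 lay between 90.7 and 97.6 CPM and the other 6 between 178 and 292. RhoC tumors ran from 56.4 in R-6 to 369 in R-7 and overlapped both ranges. The fitted log2 difference of 0.25, SE 0.30, did not pass the test (adjusted p = 0.647). It was 0.16 without N-9 or without N-1, 0.42 against the 7 Gata4(loxP/+) controls and 0.50 without the 3 squamous cell carcinomas (edgeR, adjusted p = 0.339).

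*Lama5* (chr2:180176373-180225859), the most widespread alpha chain of adult epithelial and vascular basement membranes, had a narrower range in RhoC tumors than in controls. RhoC tumors lay between 205 and 426 CPM with a median of 295, a coefficient of variation of 22.2%. Controls lay between 92.8 and 584 with a median of 178, a coefficient of variation of 70.9%. All 12 RhoC tumors were above the control median, and 3 of 9 controls were above the RhoC median, N-15 at 584, N-17 at 571 and N-8 at 426 CPM. N-15 and N-17 are the 2 controls without a Gata4 loxP allele. Fitted over all tumors the log2 difference was 0.15, SE 0.30 (adjusted p = 0.808), and against the 7 Gata4(loxP/+) controls alone it was 0.67 (adjusted p = 0.132). With 1 tumor left out it ran from 0.028 (without N-4) to 0.36 (without N-15). The difference in spread was not tested.

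Shares of *Lama1*, *Lama2*, *Lama4* and *Lama5* in their sum, without *Lama3*, were taken within each tumor. They used the deposited FPKM, which divides by gene length, so that chains can be set beside each other. *Lama4* and *Lama5* led in all 21 tumors, *Lama4* in 5 of 9 control and 8 of 12 RhoC tumors and *Lama5* in the other 4 of each cohort. Which of them led turned with the length used: on CPM, with no length, *Lama5* led in 7 of 9 control and 9 of 12 RhoC tumors, and per annotated exonic base, a divisor chosen after seeing the data, in 7 and 10. The deposited FPKM implies a *Lama4* length 0.531 times that of *Lama5*, whereas the GENCODE annotation gives 12068 exonic bases for *Lama4* over all its transcripts and 11388 for *Lama5*. The *Lama5* share had a median of 36.4% in controls (17.2% to 54.7%) and 39.1% in RhoC tumors (17.8% to 61.8%), and the *Lama4* share 44.8% (40.6% to 77.8%) and 51.3% (24.5% to 67.1%). *Lama2* made up 2.21% to 17.7% of the sum over all tumors. The *Lama1* share stayed under 5% in 16 of 21 tumors and was highest in R-10 (22.8%), R-6 (18.4%), N-7 (14.1%), N-9 (11.6%) and N-1 (8.48%). The shares are a description with no test, and their ranges overlapped between cohorts for every chain.

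**Figure D3:**
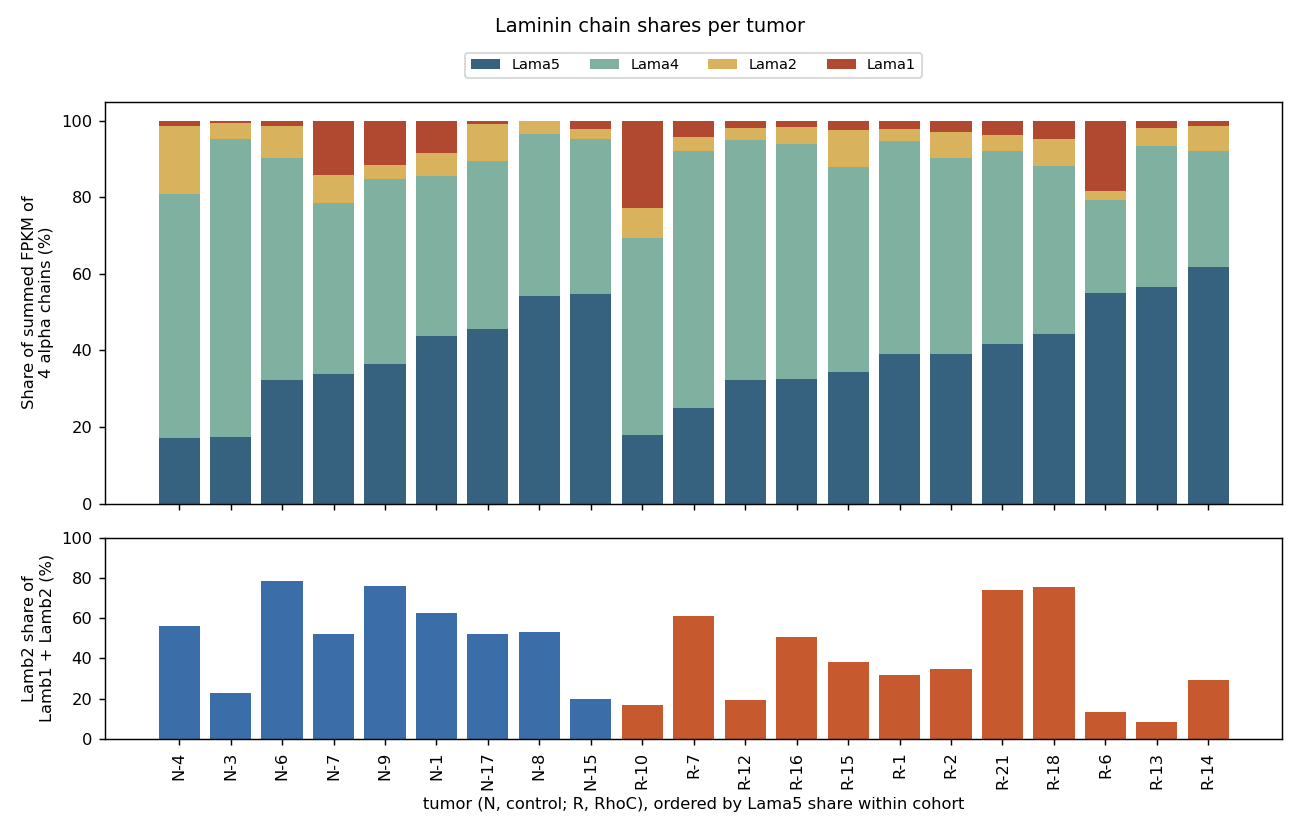
Upper bars, share (%) of each alpha chain in the summed FPKM of *Lama1*, *Lama2*, *Lama4* and *Lama5* in each tumor; lower bars, *Lamb2* share (%) of *Lamb1* plus *Lamb2* (blue, control; orange, RhoC). *Lama4* or *Lama5* is the largest alpha share in every tumor, with *Lama4* ahead in 5 control and 8 RhoC tumors on FPKM and in 2 and 3 on CPM, and the *Lamb2* share runs from 8.18% in R-13 to 78.4% in N-6.

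The beta chains are alternative partners of the same alpha and gamma chains. *Lamb1* (chr12:31265234-31329644) encodes the common beta chain, and *Lamb2* (chr9:108479736-108490530) the beta chain of vascular, neuromuscular and kidney basement membranes. *Lamb1* ran from 35.2 CPM in N-9 through a median of 130.3 to 310.2 in N-15 among controls, and from 65.7 in R-18 through 261 to 695 in R-13 among RhoC tumors. Only N-15 of the 9 controls exceeded the RhoC median. The fit put *Lamb1* 0.96 higher on the log2 scale (SE 0.39), a 1.94-fold difference, with an unadjusted p of 0.0234 and an adjusted p of 0.183 over all tested genes. The 2-sided exact permutation test on log2 CPM gave p = 0.0381, unadjusted over the 10 genes tested that way.

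The *Lamb1* difference was smaller where mice rather than tumors were counted, and its unadjusted p was then above 0.05. It was 0.73 on the log2 scale with counts summed per mouse (edgeR, unadjusted p = 0.0946, adjusted p = 0.462) and 0.84 by limma voom with mouse as a random effect (unadjusted p = 0.0572, adjusted p = 0.398). Without the 4 tumors of mouse P497 it was 0.68 (edgeR, unadjusted p = 0.124, adjusted p = 0.528), and without the 3 squamous cell carcinomas 0.65 (edgeR, unadjusted p = 0.118, adjusted p = 0.435).

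*Lamb2* did not pass the test and was 147 ± 94.0 CPM in RhoC tumors and 148 ± 81.9 in controls (log2 fold change -0.01, 95% interval -0.76 to 0.74, adjusted p = 0.989). It ran from 51.1 CPM in R-6 to 362 in R-21. Over the 21 tumors the Spearman rho of *Lamb1* with *Lamb2* was -0.397, and over the 17 mice -0.294, with no test. Per length, *Lamb2* exceeded *Lamb1* in 7 of 9 controls and 4 of 12 RhoC tumors. The *Lamb2* share of the pair had a median of 53.0% in controls (19.6% in N-15 to 78.4% in N-6) and 33.3% in RhoC tumors (8.18% in R-13 to 75.5% in R-18), with wide overlap.

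The sequence before the starts of these alternative beta chains is shown so that the pair can be compared. RefSeq promoter windows on GRCm38.p6 were matched for 6 of the 10 genes, and each line below holds the plus strand of the 250-base window up to the first GENCODE gene start, 191 bases for *Lamb1* at chr12:31265043-31265233 and 124 for *Lamb2* at chr9:108479612-108479735. Capitals mark GGGCGG and CCAAT on either strand (CCGCCC and ATTGG where reversed).
Lamb1: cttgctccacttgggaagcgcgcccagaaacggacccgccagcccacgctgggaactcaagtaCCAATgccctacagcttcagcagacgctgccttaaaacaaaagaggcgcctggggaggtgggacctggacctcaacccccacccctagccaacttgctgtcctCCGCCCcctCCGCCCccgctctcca
Lamb2: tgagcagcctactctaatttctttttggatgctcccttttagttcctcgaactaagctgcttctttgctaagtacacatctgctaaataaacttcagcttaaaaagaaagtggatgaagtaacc
*Lamb1* held 2 matches to GGGCGG and 1 to CCAAT in its 250-base window, and *Lamb2* held 0 of each. The GC content of the windows was 62.0% and 43.6%, beside a median of 52.4% over 32851 promoters. Over all those promoters, 32.7% held GGGCGG and 33.8% held CCAAT. A match is a description of the letters in the window.

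*Lamc1* (chr1:153218922-153332786) encodes the gamma chain of nearly all laminins outside the hemidesmosome. It was the steadiest of the 10 genes between tumors, with a highest value 4.27 times the lowest. Controls ran from 169 CPM in N-9 through 349 to 652 in N-15, and RhoC tumors from 234 in R-6 through 386 to 721 in R-10. Its log2 difference of 0.16, SE 0.24, did not pass the test (adjusted p = 0.730; 95% interval -0.34 to 0.66). It was 0.051 without R-10, 0.31 without N-15 and 0.40 against the 7 Gata4(loxP/+) controls, and none of these passed the test either.

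The nidogens did not pass the test. *Nid1* (chr13:13437551-13512269) was at 214 ± 145 CPM in controls and 197 ± 90.9 in RhoC tumors. Its control range, 49.8 in N-9 to 549.9 in N-17, enclosed the RhoC range of 98.6 in R-18 to 380.4 in R-10. The log2 difference was -0.12, SE 0.34 (adjusted p = 0.864), the difference in mean log2 CPM was 0.04 in the other direction, and without N-17 the fit gave 0.19. *Nid2* (chr14:19751265-19811787) was at 46.0 ± 14.7 CPM in controls and 61.1 ± 31.9 in RhoC tumors, a log2 difference of 0.41, SE 0.25 (adjusted p = 0.354). Its highest value, 149 CPM, was again in R-10, and without that tumor the log2 difference was 0.21. The *Nid2* share of the nidogens per length was 14.5% to 35.8% in controls and 17.5% to 35.3% in RhoC tumors, so *Nid1* was the larger in all 21. In the GENCODE annotation *Nid2* shares 437 of its 5174 exonic bases with *Rtraf* on the other strand, and whether counting used the strand is not stated.

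*Agrn* (chr4:156165290-156197488) encodes agrin, which clusters acetylcholine receptors at the neuromuscular junction and in other tissues binds laminin and dystroglycan. Controls ran from 93.7 CPM in N-3 through 235 to 601 in N-15, and RhoC tumors from 225 in R-21 through 351 to 773 in R-13. In RhoC tumors 11 of 12 values were above the control median, and 3 of 9 controls were above the RhoC median. The fitted log2 difference was 0.50, SE 0.30 (adjusted p = 0.346), and the exact permutation p was 0.0614. Against the 7 Gata4(loxP/+) controls alone it was 0.87 (adjusted p = 0.0969). All 4 tumors of mouse P497 were among the 8 highest of the 21, and without them the log2 difference was 0.19.

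On the length-corrected scale, which rests on the lengths in the deposited FPKM, median FPKM over the 21 tumors fell in the order *Lamc1* (49.4), *Agrn* (40.2), *Lama4* (35.1), *Lamb1* (33.0), *Nid1* (32.2), *Lama5* (24.8), *Lamb2* (19.6), *Nid2* (9.84), *Lama2* (3.20) and *Lama1* (1.59). Neighbours from *Lamc1* to *Lamb2* were not separated, each exceeding the next in 10 to 14 of 21 tumors. *Lamb2* exceeded *Nid2* in 18 tumors, *Nid2* exceeded *Lama2* in all 21 and *Lama2* exceeded *Lama1* in 15. The middle of this order turned with the length used. Per annotated exonic kilobase, median CPM fell in the order *Lamc1* (46.5), *Agrn* (35.04), *Nid1* (28.2), *Lama5* (24.7), *Lamb1* (19.8), *Lamb2* (18.2) and *Lama4* (17.9), with *Lama4* moving from rank 3 to rank 7 and the last 3 genes in the same places.

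To ask which cells of a mixed tumor these genes go with, each of the 10 was set against 5 marker lists over 17 mice, 50 relations in all. Both Pearson's r and Spearman's rho passed an adjusted p of 0.05 for 10 relations, and all 10 were positive. None of them involved luminal or basal epithelial markers. Taking r by itself, 16 relations passed, so the 10 do not tie a gene to 1 cell type only. Among those passing by r alone were *Lama4* with mural (r = 0.67, adjusted permutation p = 0.016) and with fibroblast markers (r = 0.64, adjusted permutation p = 0.0201). *Lama2* with endothelial markers was another (r = 0.72, adjusted permutation p = 0.00579). *Nid1* gave the highest r, 0.90 with the 10 endothelial markers (rho = 0.84; adjusted permutation p = 0.0005 and 0.0015), and *Nid2* gave r = 0.83 and rho = 0.85 with the same list (adjusted permutation p = 0.00175 and 0.001). For both nidogens the relation was seen within the 9 control mice (r = 0.90 and 0.94) and within the 8 RhoC mice (r = 0.91 and 0.95). Without the 2 mice farthest from the median endothelial level, N-17's mouse among them, r was 0.80 for *Nid1* and 0.86 for *Nid2*.

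**Figure D4:**
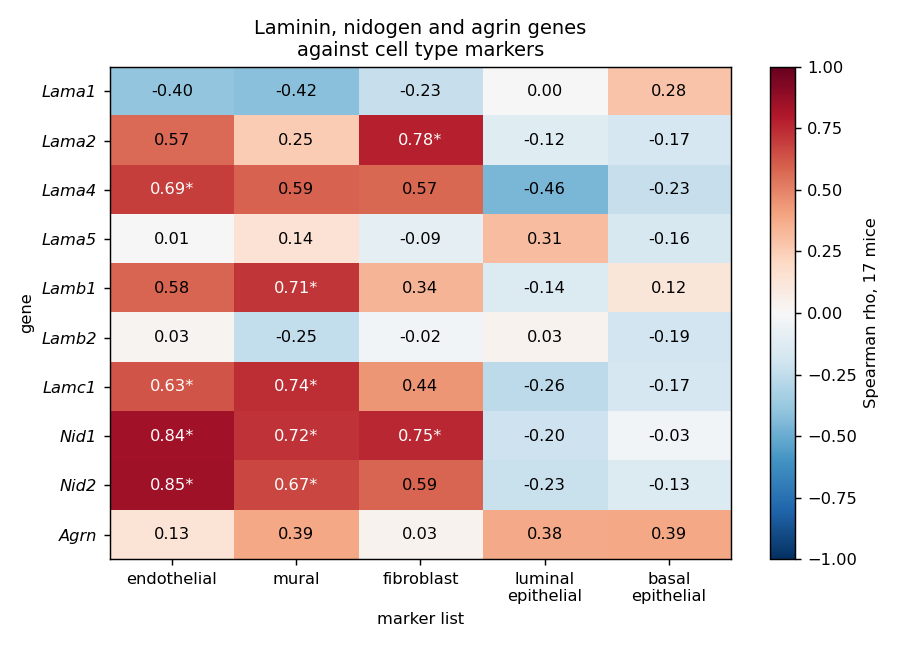
Spearman rho of each gene's log2 CPM with the mean log2 CPM of each marker list over 17 mice; an asterisk marks an adjusted permutation p under 0.05. The starred cells lie in the endothelial, mural and fibroblast columns, and the *Lama1*, *Lama5*, *Lamb2* and *Agrn* rows hold none.

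*Lamc1* went with mural markers such as *Pdgfrb* and *Rgs5* (rho = 0.74, r = 0.73; adjusted permutation p = 0.0097 and 0.00581) and with endothelial markers (rho = 0.63, r = 0.60; adjusted permutation p = 0.0431 and 0.0362), and without the 2 farthest mice r was 0.72 and 0.54. *Lama4* went with endothelial markers at rho = 0.69 and r = 0.66 (adjusted permutation p = 0.02 and 0.017), with r = 0.70 in controls, 0.85 in RhoC mice and 0.54 without the 2 farthest mice. *Lamb1* went with mural markers at rho = 0.71 and r = 0.70 (adjusted permutation p = 0.0141 and 0.00972), and r was 0.74 without the 2 farthest mice. Over the 21 tumors, where mouse P497 counts 4 times, the *Lamb1* rho was 0.48. The nidogens also went with mural markers, at rho = 0.72 for *Nid1* and 0.67 for *Nid2* (r = 0.69 for both without the 2 farthest mice).

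*Lama2* and *Nid1* were the genes related to the 7 fibroblast markers by both measures. *Lama2* gave rho = 0.78 and r = 0.78 (adjusted permutation p = 0.00583 and 0.0018), with r = 0.87 in controls and 0.49 in RhoC mice, and *Nid1* gave rho = 0.75 and r = 0.85 (adjusted permutation p = 0.0097 and 0.0005). Without the 2 farthest mice r was 0.64 for *Lama2* and 0.73 for *Nid1*. *Lama5*, *Lamb2* and *Agrn* had no relation past the threshold with any list. *Lama1* had a rho of 0.9 with basal epithelial markers within the 9 control mice and -0.21 within the 8 RhoC mice, so its pooled rho of 0.28 covers opposite signs. The same was seen with mural markers for *Lamb2* (0.23 and -0.83) and *Lama5* (0.25 and -0.71). In all, 16 of the 50 relations had opposite signs in the cohorts, 0 of them among the 10 that passed by both measures, and the differences between cohorts were not tested.

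**Figure D5:**
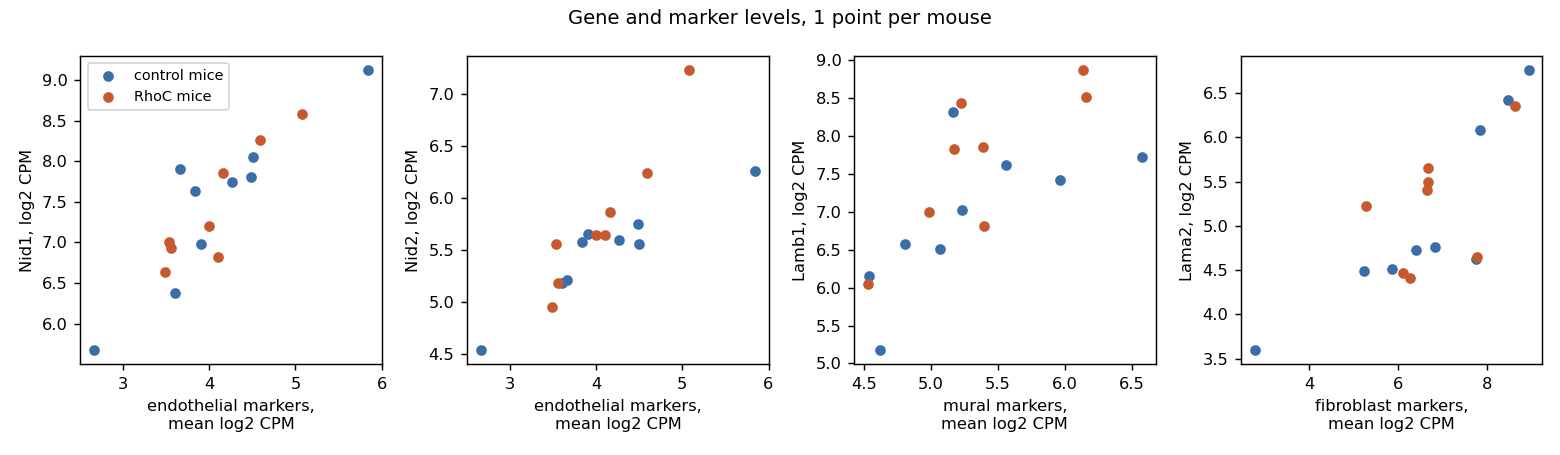
Log2 CPM of *Nid1*, *Nid2*, *Lamb1* and *Lama2* (vertical axes) against mean log2 CPM of the endothelial, endothelial, mural and fibroblast markers (horizontal axes), 1 point per mouse. Spearman correlations are 0.84, 0.85, 0.71 and 0.78, with control mice in blue and RhoC mice in orange.

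For the marker lists themselves, edgeR called 0 of the endothelial, mural, fibroblast and luminal markers between cohorts, and at an unadjusted p under 0.05 1 of 8 mural markers was higher, where 10.5% of all tested genes were, and 2 of 7 fibroblast markers were lower, where 9.93% were. The median log2 fold change was -0.27 for 10 endothelial markers, 0.20 for 8 mural, -0.12 for 7 fibroblast and -0.30 for 7 luminal markers. Basal epithelial markers had a median of 0.998 with 6 of 6 higher and 0 called, and their summed CPM ran from 6.63 to 17135 in RhoC tumors.

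Among the 10 genes themselves, the closest were *Lama4* and *Lamc1* (rho = 0.77 over 21 tumors), *Lamb1* and *Agrn* (0.731), *Lamc1* and *Nid1* (0.727), and *Lamb1* and *Nid1* (0.682). Over the 17 mice, with mouse P497 counted once, the order was *Lamc1* and *Nid1* (0.838), *Lamb1* and *Lamc1* (0.789), and *Lama4* and *Lamc1* (0.74), and *Lamb1* and *Agrn* were at 0.676. The pair of *Lama4* and *Lamb1* went from 0.239 over tumors to 0.64 over mice. *Lama5* was nearest to *Agrn* on both counts (0.638 and 0.696). *Lama1* had a negative rho to each of the other 9, from -0.362 to -0.0545 over tumors and from -0.331 to -0.027 over mice. These correlations share libraries and carry no test.

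Outside the 10, the genes most like each by Spearman rho over the 21 tumors were *Prss23* (0.926) and *Nnmt* (0.908) for *Nid1*, *Flt4* (0.861), the VEGF receptor of lymphatic and some blood vessels, and *Exoc3l* (0.852) for *Nid2*, and *Bmp1* (0.894), the procollagen C-proteinase, and *Ehd1* (0.888) for *Lamb1*. For *Agrn* they were the cytokine gene *Lif* (0.886) and *Socs3* (0.884), for *Lamb2* *Ldhd* (0.881) and *Hhipl2* (0.86), and for *Lamc1* *Tram2* (0.84) and *Itga9* (0.838). *Lama1* was nearest to *Wiz* (0.835) and *Usp36* (0.818), *Lama2* to *Svep1* (0.819) and *Gm49265* (0.805), *Lama4* to *Stk32b* (0.831) and *Fam181b* (0.819), and *Lama5* to *Aldh3b1* (0.775) and *Ube2l6* (0.773). With 19315 genes ranked, the highest of them is high by selection.

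The study's sample table gives a histology for 18 of the 21 tumors. It is not in the sample labels, so values are set side by side with no test. R-13 and R-14, of mouse P497, and R-6 were squamous cell carcinomas, and these 3 had *Lama4* at 56.4 to 129 CPM, where the 5 complex adenocarcinomas had 183 to 369 and the 4 poorly differentiated adenocarcinomas 178 to 268. Values within the squamous range were also seen in 2 of the 3 solid nodular carcinomas, N-9 at 92.5 and N-7 at 97.6 CPM, and in the spindle cell tumor N-1, at 90.7, while the third solid nodular carcinoma, R-1, was at 226. The *Lama5* share of the sum of *Lama1*, *Lama2*, *Lama4* and *Lama5* was 54.9% to 61.8% in the squamous tumors on FPKM. On that scale 2 other tumors (N-15 and N-8) exceeded 50%. On CPM it was 64.3% to 72.8%, where 8 others exceeded 50%. *Lama3* is not in the sum. The squamous tumors had *Lamb1* at 297 to 695 CPM, overlapping the complex (130.3 to 465) and poorly differentiated adenocarcinomas (89.0 to 310.2), and the solid nodular carcinomas had 35.2 to 225. Their *Agrn*, at 349 to 773 CPM, likewise overlapped the complex (128 to 569) and poorly differentiated adenocarcinomas (93.7 to 601), with 193 to 314 in the solid nodular carcinomas. *Nid1* was at 49.8 to 123 CPM in the solid nodular carcinomas, while complex adenocarcinomas ran from 128 to 380. The 4 poorly differentiated adenocarcinomas were all controls. R-2, listed with an adenomyoepithelioma as well, and R-15, given as solid nodular or poorly differentiated, are in none of these ranges. R-15 had *Nid1* at 273, *Lamb1* at 303 and *Agrn* at 584 CPM, above the solid nodular values. All 3 squamous tumors were RhoC tumors, from mice N9255 and P497. The other 9 RhoC tumors had *Lama4* at 186 to 369 CPM, but R-18 and R-21 among them have no histology given. How many of all tested genes set the same tumors apart was not counted. In mouse N9255 the squamous R-6 was at 56.4 CPM and R-7 at 369. In mouse P497 the squamous R-13 and R-14 were at 129 and 106 CPM, and R-15 and R-16 at 217 and 324.

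Other basement membrane genes, receptors, dystroglycan glycosylation enzymes and matrix proteases were counted from lists of 24, 13, 7 and 12 genes, all tested. None of these 56 was called by edgeR, where DESeq2 called 11, all higher, beside 5.94% of the genes it tested. At an unadjusted p under 0.05, 6, 3, 2 and 4 of them were higher, where 10.5% of all tested genes were, and 0, 0, 0 and 1 were lower, where 9.93% were. The 24 other basement membrane genes had a median log2 fold change of 0.79 with 21 higher, beside 0.21 for the 10 genes here and -0.005 for all tested genes.

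*Lama3* and *Lamb3*, laminin chains of hemidesmosomes in that list, had larger estimates than any of the 10. *Lama3* was 3.52 higher on the log2 scale (adjusted p = 0.118) and *Lamb3* 2.57 (adjusted p = 0.144), with SDs in RhoC tumors above their means. DESeq2 called both (adjusted p = 0.00722 and 0.0285), and of the genes named next it called *Itgb4* (adjusted p = 0.00204), *Itga2* (0.0274), *B4gat1* (0.0302), *Bmp1* (0.0409) and *Mmp10* (0.0105). The adjusted p values that follow are those of edgeR. The smallest p values downward in that list were those of *Pxdn* (-0.48) and *Tinagl1* (-0.40). Among receptors *Itgb4*, the integrin beta chain of hemidesmosomes, was at 1.96 (adjusted p = 0.0606) and *Itga2*, a collagen and laminin receptor chain, at 1.99 (adjusted p = 0.125), while *Musk*, the kinase through which agrin signals in muscle, was at -1.69 on under 2 CPM in each cohort's mean and *Sdc4* at -0.14. *Dag1*, which encodes dystroglycan, was at 0.13 (adjusted p = 0.801). The glycosylation gene *B4gat1*, which primes the laminin-binding glycan of dystroglycan, was at 0.68, SE 0.21 (adjusted p = 0.097), and *Pomt2* 0.32 (adjusted p = 0.159). Of the proteases *Bmp1* was at 1.23 (adjusted p = 0.116), *Mmp10* at 3.24 (adjusted p = 0.124), *Adamts1* at -1.06 (adjusted p = 0.224) and *Hpse*, heparanase, at -0.82 (adjusted p = 0.275).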

How the data were processed

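RNA of 21 tumors had been sequenced by the authors from stranded, rRNA-depleted total RNA libraries. For each tumor the authors deposited whole read counts per gene (FastQC 0.11.5, Trim Galore 0.5.0, STAR 2.6.0c and HTSeq 0.6.1p2 on GRCm38.p6), with reads on several genes discarded. Neither the annotation release nor the use of strand in counting is given in the sources used here. The deposited FPKM values, length-corrected by the authors with 1 scaling factor per tumor, were used for shares within tumors and to rank the 10 genes by their median over tumors. Columns of the authors' own comparisons (fold changes and p values) were not used.

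Counts were TMM-scaled and tested with edgeR 4.0.16 in R 4.3.3 (filterByExpr by cohort, quasi-likelihood test, no covariates, 19315 genes), with calls where the p, adjusted over all of them after Benjamini and Hochberg, was under 0.05. The SE is the log2 fold change over the square root of F. Log2 CPM used a prior count of 2. Single genes were also tested by exact permutation of tumors. Correlations used counts summed per mouse (17 mice) and 100000 permutations, adjusted over 50 relations. Alternatives were DESeq2 1.42.0, voom with mouse as a random effect (limma 3.58.1), other filters and scalings, and fits on fewer tumors. The edgeR test was checked on simulated data, where 118 of 123 calls were true changes and 59% of the changes put in were recovered. The simulated tumors were independent, so the check does not cover tumors that share a mouse. Each tumor's cohort came from its label, and both control genotypes formed a single cohort, as in the study. Tables and permutations used Python 3.11.15 and scipy 1.17.1.

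The genes named are the 10, *Rhoc* and *Erbb2*, *Lama3* and *Lamb3*, and in each of the 4 other lists every called gene or else the 2 with the smallest p in each direction, and for each of the 10 the 2 genes of highest Spearman rho. A further gene of this rule is not reported here. *Dag1*, and the genes called only by DESeq2 or against the 7 Gata4(loxP/+) controls (*Fras1*, *Itga3*, *Mmp9* and *Hspg2*), were added after their values were seen. The genes, lists and rule were chosen with earlier results of these data known. The label of R-21 names a mouse that the study's table gives to another RhoC tumor, so its mouse is unsettled.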

Additional observations from a re-analysis of the deposited data

How the results depend on the processing

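Over 21 fits that each left out 1 tumor and 10 other alternatives, none of the 310 values of the 10 genes passed an adjusted p of 0.05, and 287 kept their direction. The smallest adjusted p was 0.0793, for *Lamb1* against the 7 Gata4(loxP/+) controls, where its log2 fold change was 1.33. The 23 changes of sign were in genes with estimates near 0. *Lama2* turned to 0.047 with voom, 0.089 with those 7 controls and 0.021 without the 3 squamous cell carcinomas, and ranged from -0.29 to 0.15 with 1 tumor left out. *Lamb2* turned to 0.0029 over all genes with at least 1 count, 0.0046 with library size in place of TMM and 0.20 without the squamous tumors, and ranged from -0.22 to 0.21. *Nid1* turned to 0.27 with the 7 controls and ranged from -0.26 to 0.19. The cause was not tested.

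The 4 label numbers in both cohorts belong to different mice, and same-numbered tumors did not deviate together (r from -0.237 to 0.0217). With these numbers as a replicate block over 8 tumors, 0 of the 10 genes were called, but so were 0 of all 18939 genes tested. In that fit *Lama1* was at 0.13 (1.18 over all tumors) and *Lamb2* at 0.015. The same 8 tumors without the number, a fit chosen after seeing the data, put *Lama1* at 0.30, *Lama5* at -0.19 and *Lamc1* at -0.0048.

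Of the 56 other genes, 0 were called by edgeR, 11 by DESeq2 (among them *Lama3*, *Lamb3*, *Fras1*, *Itga2*, *Itga3*, *Itgb4*, *B4gat1*, *Mmp9*, *Mmp10* and *Bmp1*; all 11 higher), 1 with the 7 controls (*Hspg2*) and 0 to 1 with 1 tumor left out (*Itgb4* without N-15). Over all genes edgeR called 43, DESeq2 1452, and edgeR 3 with counts summed per mouse and 438 with the 7 controls. In shares, CPM without a length moved the *Lama4* median from 44.8% to 31.3% in controls and from 51.3% to 37.3% in RhoC tumors, and the *Lama5* median in RhoC tumors from 39.1% to 52.8%. Over 21 tumors in place of 17 mice, rho fell to 0.48 for *Lamb1* with mural and 0.60 for *Lama2* with fibroblast markers.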
